A study of Mus musculus with 16 samples.

Results

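Smooth muscle and pericyte markers were followed through 16 mouse heart transcriptomes. The set holds 10 genes, taken by name from the 30153 genes of the deposited table: 5 contractile genes of smooth muscle (Myl9, Acta2, Tagln, Myh11 and Cnn1) and 5 genes used as pericyte markers (Rgs5, Pdgfrb, Cspg4, Kcnj8 and Abcc9). All 10 have a row in it. No threshold on a measured value entered the rule. Replicate numbers below only name the hearts. Hearts came from 4 groups on a C57/BL6 background: adult C57 mice (n = 3), aged Haplotype-I mice (n = 4), aged Haplotype-I mice given a western diet (n = 5) and adult Haplotype-I mice given that diet (n = 4). Haplotype-I, or Hap-I, mice overexpress the human angiotensin type 1 receptor from a transgene, and all 3 Hap-I groups carry it. The labels name no western diet for the C57 hearts or the aged Hap-I hearts. The series' design text lists the adult Hap-I group without a diet while each of its 4 sample labels states one, and the sample labels were followed. By the labels, no group holds aged C57 mice, C57 mice given the diet, or adult Hap-I mice without it. Against C57, aged hearts therefore differ in genotype and age together, and adult western-diet hearts in genotype and diet. Aged western-diet hearts differ in genotype, age and diet, so no comparison against C57 isolates genotype. The promoter that drives the transgene, the mice's ages in months, their sex and the part of the heart taken are not given in the sources used here.

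Blood vessels are built of endothelial tubes wrapped by mural cells. Smooth muscle cells form the contractile coat of arteries and veins, and pericytes lie on capillaries, which are dense in heart muscle. Smooth muscle contracts when calcium drives phosphorylation of the regulatory light chain on smooth muscle myosin, and its contractile genes are classic targets of serum response factor with its coactivator myocardin, acting through a DNA element called the CArG box. Angiotensin II acting on its type 1 receptor constricts vessels. Pericytes depend on PDGF-B from endothelium, sensed by the receptor encoded by Pdgfrb, and express a potassium channel that opens when ATP falls, with a pore encoded by Kcnj8 and a regulatory subunit encoded by Abcc9. Several of these genes are not exclusive to mural cells: Abcc9 is also used by cardiac muscle, and Tagln and Acta2 by activated fibroblasts.

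Promoter windows of RefSeq (GRCm38.p6, 250 bases before to 50 after a gene's start) were available for 7 of the 10 genes, and the 250 bases before the start are shown for 3 of them: Myl9 and Kcnj8, the members with the most calls beside Myh11, and Acta2, the contractile member with none. Capitals mark a match to the CArG box, searched on both strands as CC, then 6 bases that are each A or T, then GG. Tagln, Myh11 and Pdgfrb are not shown.
Myl9, chr2:156775214-156775463, plus strand: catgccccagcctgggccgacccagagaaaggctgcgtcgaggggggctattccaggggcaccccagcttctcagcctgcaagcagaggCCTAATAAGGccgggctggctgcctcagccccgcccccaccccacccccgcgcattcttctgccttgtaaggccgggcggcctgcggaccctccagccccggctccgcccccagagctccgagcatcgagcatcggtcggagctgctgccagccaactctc
Acta2, chr19:34255374-34255623, minus strand: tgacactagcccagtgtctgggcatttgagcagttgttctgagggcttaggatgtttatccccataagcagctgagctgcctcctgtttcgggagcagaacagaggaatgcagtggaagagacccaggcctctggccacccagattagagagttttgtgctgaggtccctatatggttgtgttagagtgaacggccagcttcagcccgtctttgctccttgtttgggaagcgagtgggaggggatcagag
Kcnj8, chr6:142571615-142571864, minus strand: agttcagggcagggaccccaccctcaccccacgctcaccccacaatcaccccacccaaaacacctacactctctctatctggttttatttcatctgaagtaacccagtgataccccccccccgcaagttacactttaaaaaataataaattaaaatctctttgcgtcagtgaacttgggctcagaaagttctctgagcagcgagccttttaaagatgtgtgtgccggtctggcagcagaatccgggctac
Myl9 held 1 match, CCTAATAAGG, whose first base lies 161 bases before the start. The windows of Acta2, Cnn1, Rgs5, Cspg4, Kcnj8 and Abcc9 held none. Stretches 1 base off the pattern were not counted, such as ccctatatgg and ccttgtttgg in the Acta2 window. Of 27025 genes with a window of this length, 1.81% held a match, and of 15 other contractile genes of smooth muscle with a window, 0 did. A match here is a match of letters, and a window without one says only that these letters are not in it.

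In GRCm38, by the GENCODE M21 annotation, the gene models lie as follows. Myl9 (ENSMUSG00000067818) spans 156775420 to 156781658 on chromosome 2. Myh11 (ENSMUSG00000018830) spans 14194535 to 14291372 on chromosome 16. Kcnj8 (ENSMUSG00000030247, 142564837 to 142571614) and Abcc9 (ENSMUSG00000030249, 142587862 to 142702315) are neighbours on the minus strand of chromosome 6. Reads were assigned to transcripts by short words, so the share of a gene's 31-base words that also occur in other genes bears on its level. That share was 3.18% or less in 9 of the 10 members. In Tagln it was 62.2%, mainly with Gm48529 and Pcsk7, and 3.93% with genes that have a row in the table, so Tagln is reported as uncertain.

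Values are TPM, transcript abundances corrected for transcript length and scaled to a common total, divided here by a size factor per library (0.678 to 1.23) and called scaled TPM. Depth is unknown from TPM, and the errors given are spreads between animals (SD) or standard errors of the limma model. Between 31.1% and 46.1% of a library's TPM came from the mitochondrial genome. Y-linked transcripts were absent, under 1 TPM in sum, from aged western-diet replicates 1, 2 and 3 and adult western-diet replicates 1 and 2, and present in the other 11 libraries. Atrial markers varied within groups: their summed level was 6827, 237 and 4637 scaled TPM in the 3 C57 hearts, 101 to 5177 in aged hearts, 92.2 to 205 in aged western-diet hearts and 40.6 to 1193 in adult western-diet hearts. Ventricular muscle markers were high in every library, at 48350 to 67382. Endothelial markers, all 13 of them above the expression filter, summed to 828 to 1398.

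The 10 genes spanned a wide range of levels per length. Rgs5 led at group means of 98.6 to 119 scaled TPM, and was the highest in every group. Acta2, Abcc9, Myl9, Tagln, Pdgfrb and Kcnj8 lay between 3.84 and 48.3 in their group means, in an order that differed between groups: Abcc9 (37.8) was above Acta2 (29.2) in aged hearts, and Myl9 (29.0) above Abcc9 (24.8) in C57 hearts. Myh11, Cspg4 and Cnn1 were scarce. Genes entered the test at 1 TPM or more in at least 3 libraries, which 11415 genes and 9 of the 10 members did. Cnn1, the actin-binding protein calponin, reached it in 1 C57 library only and was not tested. Cspg4 reached it in 7 libraries (1 C57, 4 aged, 2 aged western-diet and 0 adult western-diet), most of them in the aged group, in which it was highest. Myh11 reached it in 12 (3 C57, 4 aged, 2 aged western-diet and 3 adult western-diet). Differences are limma contrasts over all 16 libraries on the log2(scaled TPM + 1) scale, which understates changes of scarce genes; a gene was called at a Benjamini-Hochberg adjusted p under 0.05 over all 11415 genes.

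**Figure D1:**
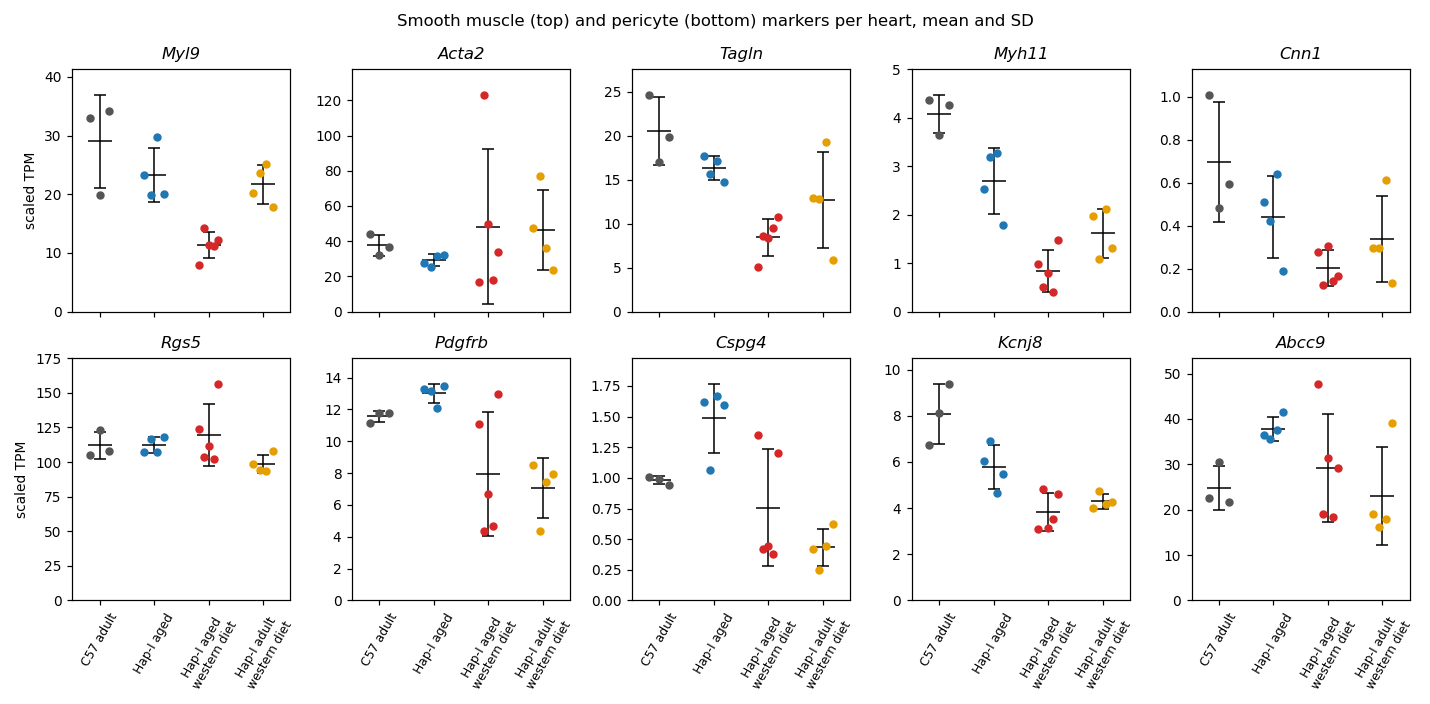
Scaled TPM of the 10 members in each of the 16 hearts (points), with the mean (wide bar) and SD (whiskers) of each group; each panel has its own linear axis from 0. On average Myl9, Tagln and Myh11 are lowest in the aged western-diet hearts, where Acta2 spreads from 17.0 to 123, and Kcnj8 is highest in C57 hearts.

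Myl9 is the regulatory light chain of smooth muscle myosin. It stood at 33.0, 19.9 and 34.2 scaled TPM in C57 hearts, at 23.3, 19.8, 29.7 and 20.1 in aged hearts, at 20.1, 23.6, 25.2 and 17.9 in adult western-diet hearts, and at 7.90, 14.2, 11.3, 11.1 and 12.2 in aged western-diet hearts. Each aged western-diet heart lay below every heart of the other 3 groups, while those 3 groups overlapped each other. With the diet in aged mice Myl9 fell 2.05-fold in its means, from 23.2 ± 4.60 (SD, n = 4) to 11.3 ± 2.28 (SD, n = 5), a log2 fold change of -0.98 ± 0.18 (limma adjusted p = 0.0429). Against adult western-diet hearts, at 21.7 ± 3.32 (SD, n = 4), it was lower by a log2 fold change of -0.89 ± 0.18 (limma adjusted p = 0.0225). Against C57, at 29.0 ± 7.96 (SD, n = 3), the aged western-diet hearts differed by -1.27 ± 0.20 (limma adjusted p = 0.000719) and the 3 Hap-I groups together by -0.64 ± 0.17 (limma adjusted p = 0.0205). Leaving out aged western-diet replicate 3 or adult western-diet replicate 1 or 3 ended the call against adult western-diet hearts (limma adjusted p up to 0.073), and leaving out C57 replicate 1 or 3 ended the call over all Hap-I groups (limma adjusted p up to 0.15). Without the 4 libraries highest in atrial markers the latter value was -0.18 (limma adjusted p = 0.803). Its close relatives Myl12a and Myl12b, light chains of nonmuscle myosin, were not called in any of the 7 comparisons and stood at group means of 370.4 to 380.1 and 21 to 25.1.

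Myh11 encodes the smooth muscle myosin heavy chain, the most restricted of the contractile markers. It stood at 4.36, 3.64 and 4.26 scaled TPM in C57 hearts and at 2.53, 3.18, 3.27 and 1.79 in aged hearts. In adult western-diet hearts it was at 1.96, 1.08, 2.11 and 1.31, and in aged western-diet hearts at 0.975, 0.513, 0.801, 0.395 and 1.48. All 3 C57 hearts were above all 13 Hap-I hearts, and the aged western-diet hearts were below the aged hearts without overlap. The ratio of group means was 4.90 between C57 and aged western-diet hearts (log2 fold change -1.50 ± 0.19, limma adjusted p = 0.000273). Myh11 also fell with the diet in aged mice (-1.02 ± 0.17, limma adjusted p = 0.0311), and was lower than in C57 in adult western-diet hearts (-0.98 ± 0.20, limma adjusted p = 0.0159) and over all Hap-I groups (-0.98 ± 0.17, limma adjusted p = 0.002). It was not called between aged and C57 hearts (-0.48 ± 0.20, limma adjusted p = 0.131), between the diet groups by age (-0.52 ± 0.17, limma adjusted p = 0.11) or between aged and adult western-diet hearts (0.50 ± 0.18, limma adjusted p = 0.144). The adult western-diet call was lost without C57 replicate 1 or 3 (limma adjusted p up to 0.0785), and the comparison of the diet groups by age passed without aged western-diet replicate 5 (-0.64, limma adjusted p = 0.0455). With a pseudocount of 0.1 in place of 1 its values were -2.28 for aged western-diet against C57 hearts and -1.67 for the diet in aged mice.

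Tagln encodes transgelin, an actin cross-linker of smooth muscle. Its levels were 24.7, 17.1 and 19.8 scaled TPM in C57 hearts, 17.7, 15.6, 17.1 and 14.8 in aged hearts, 5.11, 8.56, 8.37, 9.50 and 10.8 in aged western-diet hearts, and 12.9, 12.8, 19.2 and 5.90 in adult western-diet hearts. The aged western-diet range lay below those of C57 and aged hearts, and adult western-diet replicate 4 fell inside it. Tagln was lower in aged western-diet than in C57 hearts by a log2 fold change of -1.20 ± 0.26 (limma adjusted p = 0.00581) and lower over all Hap-I groups by -0.75 ± 0.23 (limma adjusted p = 0.0399). The diet in aged mice gave -0.90 ± 0.24 and did not pass (limma adjusted p = 0.0999; 0.0365 without adult western-diet replicate 4), and adult western-diet against C57 hearts gave -0.73 ± 0.28 (limma adjusted p = 0.144). The call over all Hap-I groups was lost on leaving out any C57 heart, any aged heart or aged western-diet replicate 3 (limma adjusted p up to 0.199). In the 11 hearts with Y-linked transcripts the aged western-diet value against C57 was -0.94 and did not pass (limma adjusted p = 0.111).

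Acta2, smooth muscle alpha actin, did not follow the other contractile members. It stood at 43.8, 32.2 and 36.6 scaled TPM in C57 hearts, 27.6, 25.4, 31.8 and 32.0 in aged hearts, 17.0, 123, 49.5, 17.7 and 33.9 in aged western-diet hearts, and 47.6, 76.9, 36.1 and 23.7 in adult western-diet hearts. Aged western-diet replicate 2, with the highest Acta2 level of all 16 hearts, held 14.2 of Myl9 and 0.513 of Myh11, both inside the low range of its group. The hearts that exceeded the highest C57 value were aged western-diet replicates 2 and 3 and adult western-diet replicates 1 and 2. These 4 are among the 5 libraries without Y-linked transcripts. The remaining library of the 5, aged western-diet replicate 1, had the lowest Acta2 level of all 16 hearts (17.0). The part of sex in the level was not tested. Acta2 had an unadjusted p of 0.05 or more in all 7 comparisons. Cnn1 was at 1.01, 0.481 and 0.595 in C57 hearts and at 0.124 to 0.306 in aged western-diet hearts, which all lay below the C57 range. With no filter on low values its log2 fold change between these groups was -0.49 ± 0.13 (limma adjusted p = 0.0259). Cnn1 reached 1 TPM in 1 C57 library only, so this call rests on values near the floor and carries no weight. No other comparison passed for Cnn1 without the filter.

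Of the 9 tested members, 2 fell and 0 rose with the western diet in aged Hap-I hearts, where 0.0876% of all genes were called lower and 0.0788% higher. Between the aged and the adult group that both had the diet 1, Myl9, was lower in the aged, against 0.718% of all genes. Against C57, 4 were lower in aged western-diet hearts (9.57% of all genes), 2 in adult western-diet hearts (1.5%), and 4 over all Hap-I groups (6.31%). Tagln, reported as uncertain, is 1 of the 4 in both of these counts. In aged against C57 hearts limma called 0 members, against 11.2% of all genes, and 2 had an unadjusted p under 0.05, Myh11 and Kcnj8, against 27.9% of all genes. Between aged hearts without the diet and adult western-diet hearts, groups that differ in age and diet together, 1 member, Cspg4, was higher in the aged hearts (1.25% of all genes). The comparisons against C57 share the same 3 control hearts, and those among Hap-I groups share groups, so they are not independent of each other. Fewer mural cells in a heart and less RNA per mural cell cannot be told apart in these bulk data.

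**Figure D2:**
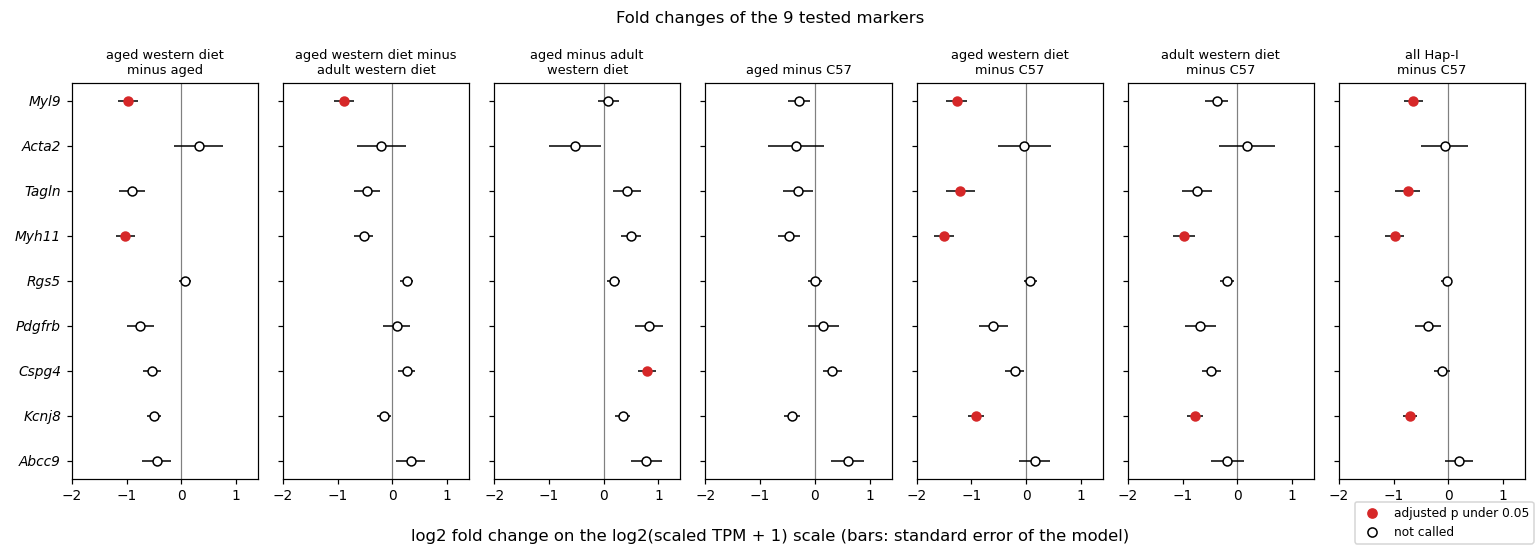
Log2 fold changes (x axis, log2(scaled TPM + 1) scale) of the 9 tested members in 7 comparisons, with standard errors of the limma model as bars; filled points have an adjusted p under 0.05. Myl9, Tagln (its level uncertain), Myh11 and Kcnj8 carry the calls against C57, and Rgs5 stays within 0.26 of 0 in each panel.

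Markers of other cell types were set beside these counts. The 13 fibroblast markers, 13 of them kept, summed to 971.5 to 1263 scaled TPM in C57 hearts, 683 to 927 in aged, 391 to 829 in aged western-diet and 441 to 824 in adult western-diet hearts; 4 were called lower in aged western-diet against C57 hearts, among them Dcn (-0.62 ± 0.13, limma adjusted p = 0.00533) and Fbln1 (-1.16 ± 0.25, limma adjusted p = 0.00565). Of 8 kept atrial markers of 9, 5 were called lower in that comparison, and 0 of either list is at 0 in all libraries. Of 12 ventricular markers 2 were called lower there, Tnni3 (-0.74) and Tnnt2 (-0.39), and of 13 endothelial markers 2, Esam (-0.44) and Fabp4 (-0.66), beside the 9.57% of all genes called lower. Of 5 mesothelial markers 3 were tested and 2 called lower (median -1.23), with summed levels of 4.87 to 13.4 in C57 and 1.78 to 3.84 in aged western-diet hearts. Krt19, among the 2, was at 1.23 to 4.10 in C57, at most 0.576 in aged and at most 0.548 in aged western-diet hearts. It passed the filter through the C57 group, in which it was high, so its call carries no weight. Of 6 adipocyte markers 3 were tested and 1 called lower (median -0.97), with summed levels of 2.13 to 15.8 and 0.157 to 2.64. The part of fibroblast, mesothelial or fat content in the members' changes was not tested. With each library's atrial marker level as a covariate, Myl9, Myh11 and Kcnj8 kept their calls in aged western-diet against C57 hearts and Tagln had an adjusted p of 0.0525 (limma). The calls of Myl9 and Myh11 for the diet in aged mice were lost with that covariate (-0.86 and -0.96, limma adjusted p = 0.135 and 0.092). Libraries also differed in how their deviations ranked with transcript length across genes: the rank correlation was 0.0182 to 0.276 in aged hearts, -0.192 to -0.0821 in C57 hearts, -0.176 to 0.307 in aged western-diet hearts and -0.254 to 0.184 in adult western-diet hearts. After a correction for length Myl9 and Myh11 were both called lower in aged western-diet than in adult western-diet hearts, Myh11 at -0.68 (limma adjusted p = 0.0429).

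The diet calls in aged mice rest on few hearts. Myl9 lost its call on leaving out any 1 of 11 of the 16 libraries: C57 replicate 1, any aged heart, aged western-diet replicates 1 to 4, and adult western-diet replicates 1 and 3 (limma adjusted p up to 0.125, log2 fold change -1.06 to -0.86), and Myh11 on leaving out any 1 of 7: C57 replicate 1, aged replicates 1 to 3 and aged western-diet replicates 2 to 4 (limma adjusted p up to 0.128). With the presence of Y-linked transcripts as a term for sex, their log2 fold changes were both -0.96, close to those without it. The limma adjusted p was then 0.0889 and 0.0683. Against C57 the aged western-diet calls of Myl9, Myh11, Tagln and Kcnj8 were kept on leaving out any 1 library, and the count of members called stayed at 4 or 5. Without the 4 libraries highest in atrial markers, which leaves 1 C57 heart taken to vary like the other groups, 0 members were called there and Myl9 was at -0.78 (limma adjusted p = 0.161).

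Serum response factor and myocardin, which drive contractile genes, were measured beside them. Srf stood at 11.5 ± 2.76 scaled TPM (SD, n = 3) in C57 hearts and 20.4 ± 2.85 (SD, n = 5) in aged western-diet hearts, a rise of 0.78 ± 0.17 on the log2 scale (limma adjusted p = 0.00526). It was also higher in adult western-diet than in C57 hearts (0.68 ± 0.18, limma adjusted p = 0.0474). Myocd rose from 3.56 ± 0.31 (SD, n = 3) in C57 to 7.39 ± 1.76 (SD, n = 4) in aged and 10.02 ± 2.50 (SD, n = 5) in aged western-diet hearts (0.85 ± 0.23 and 1.24 ± 0.22, limma adjusted p = 0.0253 and 0.0016). The C57 range of Myocd, 3.25 to 3.87, lay below that of every Hap-I group. Both genes are also expressed by cardiac muscle. The related coactivators Mrtfa and Mrtfb were not called in any comparison. In the aged western-diet hearts Srf and Myocd were higher than in C57, where 12.3% of all genes were called higher. In the same hearts Myl9, Myh11 and Tagln, the last with an uncertain level, were lower.

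Of 17 other contractile genes of smooth muscle 14 were tested; 4 were lower and 1 was higher in aged western-diet than in C57 hearts, where 9.57% of all genes were called lower and 12.3% higher, with a median log2 fold change of -0.33 against -0.0014 over all genes. Tpm2, a tropomyosin, fell from 27.7 ± 9.67 to 10.9 ± 1.43 (-1.21 ± 0.19, limma adjusted p = 0.000836). Of the 4, Lmod1 (leiomodin, which nucleates actin filaments in smooth muscle), reached 1 TPM in the 3 C57 libraries only, so it was tested through the group in which it was high and its call carries no weight; it stood at 1.20 to 1.52 in C57 hearts and at 0.262 to 0.526 in aged western-diet hearts. Csrp1 and Synpo2, actin-associated proteins, fell by 0.52 and 0.55 on the log2 scale (limma adjusted p = 0.00145 and 0.0151). Ppp1r12b, a targeting subunit of myosin phosphatase that heart muscle also expresses, rose by 0.48 ± 0.14 (limma adjusted p = 0.0242). In aged against C57 hearts 3 of the 14, Lmod1 again among them, were lower and 1 higher, where 4.06% of all genes were called lower and 7.18% higher. None of the 14 was called for the diet in aged mice (limma). Among the myosin and actin relatives Acta1, skeletal alpha actin, was higher in aged western-diet than in C57 hearts (1.50 ± 0.44, limma adjusted p = 0.0249) and Myl7, the atrial light chain, lower (-7.10 ± 2.18, limma adjusted p = 0.0303).

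**Figure D3:**
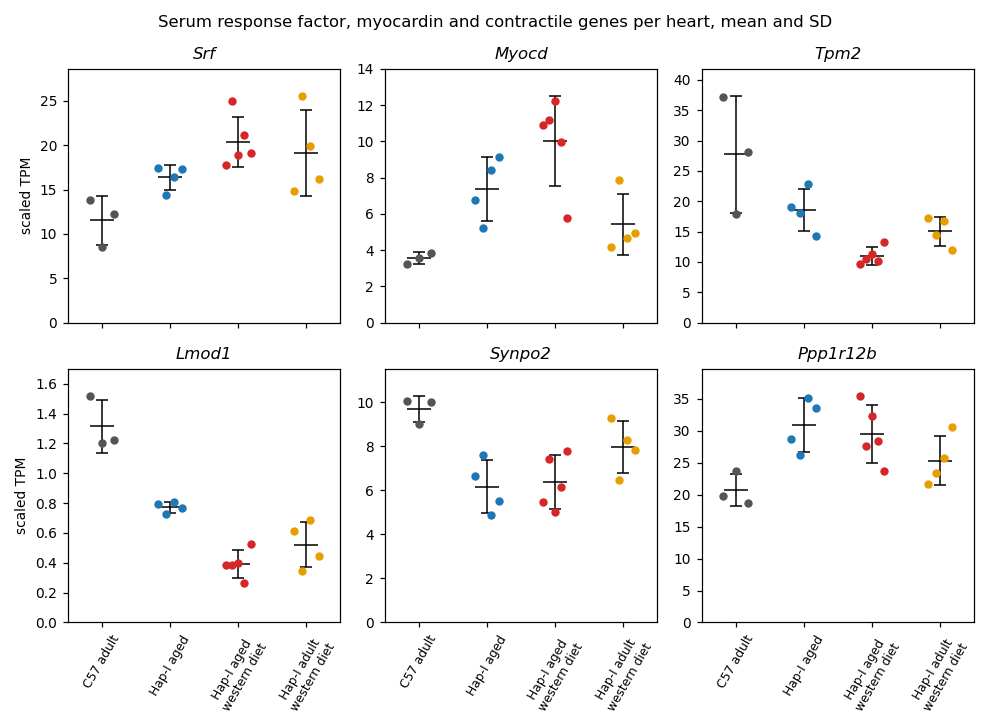
Scaled TPM of Srf, Myocd and 4 contractile genes outside the set in each of the 16 hearts (points), with group mean and SD; linear axes from 0. Srf and Myocd are highest on average in aged western-diet hearts, where Tpm2 and Lmod1 have their lowest means, and Ppp1r12b is lowest on average in C57 hearts.

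Kcnj8 encodes the pore of the vascular ATP-sensitive potassium channel, Kir6.1. It stood at 6.76, 8.10 and 9.38 scaled TPM in C57 hearts, 6.06, 6.93, 4.66 and 5.49 in aged hearts, 3.08, 4.83, 3.15, 3.51 and 4.62 in aged western-diet hearts, and 4.01, 4.76, 4.17 and 4.27 in adult western-diet hearts. C57 hearts lay above both western-diet groups without overlap, and the highest aged heart exceeded the lowest C57 heart. The level fell from 8.08 ± 1.31 (SD, n = 3) in C57 to 3.84 ± 0.83 (SD, n = 5) in aged western-diet hearts (-0.91 ± 0.14, limma adjusted p = 0.000676) and to 4.30 ± 0.32 (SD, n = 4) in adult western-diet hearts (-0.77 ± 0.15, limma adjusted p = 0.0117). Over all Hap-I groups it was lower by -0.70 ± 0.12 (limma adjusted p = 0.00235). Values that did not pass were -0.42 ± 0.15 for aged against C57 hearts, -0.49 ± 0.13 for the diet in aged mice and 0.35 ± 0.14 for aged against adult western-diet hearts (limma adjusted p = 0.0749, 0.0928 and 0.16). Without C57 replicate 3 the adult western-diet call was lost (limma adjusted p = 0.0674), and without aged replicate 2 the aged hearts passed against C57 (-0.50, limma adjusted p = 0.0487).

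Abcc9, the regulatory subunit SUR2 that partners Kcnj8, showed another pattern. It stood at 22.5, 30.4 and 21.6 scaled TPM in C57 hearts, 36.4, 35.6, 37.7 and 41.6 in aged hearts, 47.8, 19.1, 31.4, 18.4 and 29.3 in aged western-diet hearts, and 18.98, 16.2, 17.9 and 39.1 in adult western-diet hearts. The aged range lay above the C57 range, but the comparison did not pass (limma adjusted p = 0.207). Aged western-diet hearts lay to either side of the aged range. Of the adult western-diet hearts, the 1 at 39.1 was inside the aged range and the others were below it. The largest difference was 0.78 ± 0.28 between aged and adult western-diet hearts, which did not pass (limma adjusted p = 0.133); without adult western-diet replicate 4 it was 1.06 (limma adjusted p = 0.029). Aged western-diet replicate 1 had the highest Abcc9 and the lowest Kcnj8 of all 16 hearts. Abcc8 and Kcnj11, which encode the other regulatory subunit and the other pore of this channel family, were low: Abcc8 had group means of 2.42 to 3.70 and was not called in any comparison, and Kcnj11, at 0.74 or less in every heart, was not tested.

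Pdgfrb, the receptor that pericytes need for PDGF-B, stood at 11.2, 11.8 and 11.8 scaled TPM in C57 hearts and at 13.3, 13.2, 12.1 and 13.5 in aged hearts. It stood at 11.1, 4.36, 6.66, 4.71 and 12.99 in aged western-diet hearts and at 8.51, 4.33, 7.45 and 7.97 in adult western-diet hearts. Every C57 and aged heart was above 11, and 7 of the 9 western-diet hearts were below 9, the exceptions being aged western-diet replicates 1 and 5. No comparison passed for Pdgfrb. The values with an unadjusted p under 0.05 were 0.83 ± 0.26 for aged against adult western-diet hearts, -0.75 ± 0.25 for the diet in aged mice, -0.67 ± 0.28 for adult western-diet against C57 and -0.60 ± 0.27 for aged western-diet against C57 (limma adjusted p = 0.098, 0.169, 0.191 and 0.126). Without aged western-diet replicate 5 the last was -0.78 and passed (limma adjusted p = 0.0281).

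Cspg4 encodes NG2, a proteoglycan on the surface of pericytes and some smooth muscle cells. Its levels were 1.01, 0.988 and 0.942 scaled TPM in C57 hearts, 1.62, 1.07, 1.67 and 1.59 in aged hearts, 1.35, 0.419, 0.442, 0.381 and 1.20 in aged western-diet hearts, and 0.419, 0.251, 0.442 and 0.623 in adult western-diet hearts. The aged western-diet hearts split as they did for Pdgfrb, with replicates 1 and 5 above the other 3. The same 2 libraries also stood above the other 3 for some genes outside the set. Gsn, a fibroblast marker, was at 353.5 and 374.5 against 113 to 281. Podxl was at 37.2 and 33.98 against 13.5 to 19.9. It is ranked below for following the pericyte members, so its split carries no weight. Other markers did not split in this way. Dpt of fibroblasts was at 35.4 and 35.5 against 34.6 to 41.3. Fabp4 of endothelium was at 378 and 490 against 345 to 637. The part of the split between replicates 1 and 5 and the other 3 in the results was not tested. Cspg4 was higher in aged than in adult western-diet hearts (0.79 ± 0.17, limma adjusted p = 0.0263; 1.60 with a pseudocount of 0.1), without overlap. That call was lost on leaving out any 1 of 6 libraries (limma adjusted p up to 0.0943). These were aged replicates 1, 3 and 4 and adult western-diet replicates 1, 2 and 3. It was also lost with the presence of Y-linked transcripts as a term for sex (limma adjusted p = 0.0921). In the 11 hearts that hold Y-linked transcripts it did not pass either (limma adjusted p = 0.214). For the diet in aged mice the value was -0.53 ± 0.16 and for adult western-diet against C57 hearts -0.47 ± 0.18, and neither passed (limma adjusted p = 0.137 and 0.153).

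**Figure D4:**
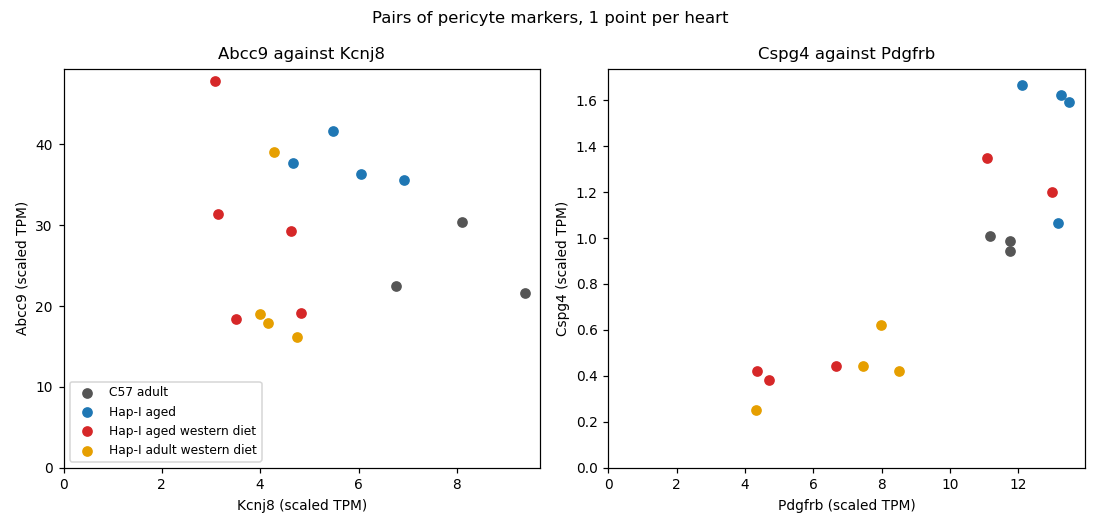
Levels of 2 pairs of pericyte markers in scaled TPM, 1 point per heart, coloured by group, linear axes from 0. On the left, Abcc9 against its partner Kcnj8: C57 hearts have the highest mean Kcnj8 and aged western-diet replicate 1 is at the top left. On the right, Cspg4 against Pdgfrb: 2 aged western-diet hearts lie with the C57 and aged hearts, and the other 3 with the adult western-diet hearts.

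Rgs5, a regulator of G protein signalling, is the most abundant member, and its group means differed least. It stood at 105, 123 and 108 scaled TPM in C57 hearts, 107, 116, 107 and 118 in aged hearts, 124, 103, 111, 102 and 157 in aged western-diet hearts, and 98.6, 94.4, 93.6 and 108 in adult western-diet hearts. All 4 groups overlapped. The value with the smallest p was 0.26 ± 0.11 for aged western-diet against adult western-diet hearts, which did not pass (limma adjusted p = 0.215) and was 0.16 without aged western-diet replicate 5.

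Of 13 other pericyte genes, all 13 tested, 2 were lower and 0 higher in aged western-diet than in C57 hearts (median log2 fold change -0.17), beside 9.57% of all genes called lower. Gja4, the vascular connexin 37, was at -0.69 ± 0.13 and Colec11, a collectin, at -0.34 ± 0.11 (limma adjusted p = 0.00278 and 0.031). Both were also lower in aged than in C57 hearts, at -0.45 and -0.48 (limma adjusted p = 0.0456 and 0.015), where 4.06% of all genes were. Notch3, the Notch receptor of mural cells, stood at 3.07 ± 0.089 in C57, 4.50 ± 0.31 in aged, 3.18 ± 1.91 in aged western-diet and 1.99 ± 0.61 in adult western-diet hearts, and was not called. Of 25 signals and receptors of mural cell recruitment, Pdgfa was higher in aged western-diet than in C57 hearts (0.55 ± 0.13, limma adjusted p = 0.0092), S1pr1 was lower in aged than in C57 hearts (-0.70 ± 0.19, limma adjusted p = 0.0264), and Pdgfd was higher in aged than in adult western-diet hearts (0.56 ± 0.14, limma adjusted p = 0.0446). Each is 1 gene of 25, where 12.3%, 4.06% and 1.25% of all genes were called in the same direction. Pdgfb was not called in any comparison.

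Genes outside the set were ranked by how closely they followed it over the 16 libraries, among 6065 genes with a mean of at least 5 scaled TPM. For the mean of the 5 contractile members, centred per gene on the log2 scale, the closest were Prdx4 (r = 0.937), Tpm2 (0.899), Tnni3 (0.857), Tssc4 (0.842) and Spint2 (0.842). For the mean of the 5 pericyte members they were Nid1 (r = 0.95), Podxl (0.939), Ltbp1 (0.939), Vps13d (0.933) and Adgrf5 (0.93). Podxl and Adgrf5 are also genes of endothelium, as are the next ranks, Cdh5 (0.929) and Flt1 (0.927), which were named after their values were seen. These are descriptions over libraries that share group, length trend and composition. With group means removed the values of the first 5 were 0.911 to 0.963 for the pericyte mean and 0.497 to 0.813 for the contractile mean. Nid1, a basement membrane protein, stood at 16.0 ± 1.06 in C57, 15.2 ± 0.73 in aged, 10.7 ± 6.24 in aged western-diet and 8.39 ± 4.51 in adult western-diet hearts, and was not called in any comparison.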

How the data were processed

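The assay was RNA sequencing of 16 hearts. Stranded libraries were made from polyadenylated RNA, per the labels' protocols. The authors deposited 1 table of TPM per gene. The tools kallisto and DESeq2 and the build GRCm38 are named, per the submitters' processing notes; versions and annotation are not given in the sources used here. Columns summed to 942090 to 959772 TPM. TPM keep no depth, so no counting error is given. Symbols matched 29732 of 30153 genes, and 0 columns were left unused.

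Groups followed the sample labels. Separate animals are stated in the design text. Genes at 1 TPM or more in at least 3 libraries were kept (11415), divided by median-of-ratios size factors, and tested as log2(scaled TPM + 1) with limma 3.58.1 in R 4.3.3, with 1 mean per group, a variance trend, 7 contrasts, two-sided p-values and Benjamini-Hochberg adjustment. The analysis was tested on simulated data. The members and lists were chosen with earlier results of these data known. Fold changes were to be printed for members with an unadjusted p under 0.05, and list genes where called. The labels give no batch. Alternatives changed scaling, pseudocount (0.1, 0.5), filter (none, 5 TPM), variance model, library weights, groups fitted, sex, atrial or length terms, threshold (adjusted p 0.01, 2-fold) and libraries; 2 alternatives, the 11 libraries with Y-linked transcripts and the omission of 4 libraries above 1000 scaled TPM of atrial markers, were chosen after seeing the data. The sex term was the presence of Y-linked transcripts in a library, not a recorded sex. Length was known for 11343 of the kept genes. Gene models came from GENCODE M21 and promoters from RefSeq.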

Additional observations from a re-analysis of the deposited data

Results flagged for a closer look

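In groups of 4 or 5 hearts, 2 of 30 member and group combinations held 1 heart far from the rest by Dixon's criterion, which chance meets in about 1 of 20. Abcc9 was at 39.1 scaled TPM in adult western-diet replicate 4, against 16.2 to 18.98 in the other 3 hearts of that group. Cspg4 was at 1.07 in aged replicate 2, against 1.59 to 1.67 in the other 3. The library of adult western-diet replicate 4 also had the only positive rank correlation with transcript length in its group (0.18, against -0.25 to -0.16); the part of length in its Abcc9 level was not tested.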

How the results depend on the processing

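No fold change printed for a member turned its direction under any alternative run. Counts of members called (2 for the diet in aged mice, 1 for age on the diet, 1 for aged against adult western-diet hearts, 0 for aged, 4 for aged western-diet, 2 for adult western-diet and 4 for all Hap-I hearts against C57) moved as follows, with each count that differs given. The diet count was 0 with no filter, a filter at 5 TPM, a sex covariate, an atrial covariate, an adjusted p of 0.01, the libraries with Y-linked transcripts only, or without the 4 libraries high in atrial markers; it was 1 with only the groups compared or at 2-fold, 3 with no scaling, and 6 with library weights. The age count was 0 with no scaling, only the groups compared, the atrial covariate, an adjusted p of 0.01, 2-fold, and both sets chosen after seeing the data, 2 with the length correction and 3 with library weights. Aged against adult western-diet hearts gave 0 at 5 TPM, with the sex covariate, at 0.01, at 2-fold and in both later sets, 2 with no scaling or only the groups compared, and 5 with library weights. Aged against C57 gave 1 with only the groups compared or the length correction and 4 with library weights. Aged western-diet against C57 gave 0 without the 4 libraries, 3 at 5 TPM, with the atrial covariate, at 2-fold and among Y-linked libraries, and 5 with no filter, library weights or the length correction. Adult western-diet against C57 gave 1 at 5 TPM or with the sex or atrial covariate, 0 at 0.01, at 2-fold and in both later sets, and 4 with library weights. All Hap-I against C57 gave 2 with the atrial covariate, at 0.01 and among Y-linked libraries, 0 at 2-fold and without the 4 libraries, and 3 with no scaling, quantile normalization, no filter, 5 TPM or the sex covariate. Leaving out 1 library gave 0 to 3, 0 to 2, 0 to 2, 0 to 1, 4 to 5, 0 to 2 and 2 to 4 in the same order. At 5 TPM Myh11 and Cspg4 were no longer tested, as their highest values were 4.60 and 2.05 TPM. Their calls could therefore not be counted there. With no filter Cnn1 was also tested, and it is among the 5 for aged western-diet against C57 hearts. Apart from these changes in the genes tested, the tighter thresholds and smaller sets, the cause was not tested. Calls over all 11415 genes moved too. Library weights took them from 19 to 316 for the diet and from 273 to 1505 for age. For aged against adult western-diet hearts they went from 244 to 3044. Against C57 they went from 1283 to 3609 for aged, 2498 to 3735 for aged western-diet and 394 to 2445 for adult western-diet hearts. For the diet they were 44 with the sex covariate and 5 with the atrial covariate. With unscaled TPM the all-gene medians (log2) were -0.16, 0.11, 0.27, 0.13, -0.03, -0.13 and -0.01. No paired analysis was possible because the labels give no replicate numbers or pairing. Depth is unknown in TPM, so how far it limits scarce members could not be measured.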
